A study of Mus musculus with 6 samples.

Results

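The genes described are those of the replicative DNA polymerases and of Okazaki fragment processing, 10 genes represented by 11 of the 35512 probe sets of the value table. They were chosen by name, with earlier results of these data known, as probe sets whose platform annotation gives a single member symbol. All 10 were among the 19938 genes tested. Both groups of cells came from the livers of 3 weaned mice aged 3.5 weeks that carry the CyclinB1-GFP transgene. Sorting divided the dissociated liver cells into GFP-positive (replicating) and GFP-negative (quiescent) fractions, with 3 arrays each. The reporter is present in both fractions, the sources used here give neither the promoter of the transgene nor the sex of the mice, and no hepatocyte purification is named. No filter on low values was applied, so no member was lost.

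Replication begins on each strand with DNA polymerase alpha-primase, which lays down a short RNA-DNA primer. Polymerase epsilon then extends the leading strand and polymerase delta the lagging strand, both held to DNA by the ring-shaped clamp PCNA. The lagging strand is made as Okazaki fragments, whose primer flaps are cut by FEN1 and whose nicks are sealed by DNA ligase I. In proliferating cells these genes are known as S phase genes under E2F control, whereas cyclin B1, after which the reporter is named, accumulates later, before mitosis. The young liver still grows by division of its hepatocytes.

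As a check of the sort, 4 measured proliferation genes (Mki67, Ccnb2, Cdk1 and Top2a) all rose in GFP-positive cells, with log2 differences between 3.12 and 4.51, and Ccnb1 was not analysed here. Of 6 measured hepatocyte markers, none passed the test, and their summed intensity was 36869 to 40116 in GFP-negative and 34639 to 37641 in GFP-positive arrays. Of the markers of other liver cells, those of Kupffer, endothelial and stellate cells had lower summed intensities in every GFP-positive array, and those of cholangiocytes, lymphoid and erythroid cells overlapped between the groups. The single markers were not all lower: the log2 difference lay above 0 for 3 of 6 Kupffer, 2 of 6 endothelial and 1 of 6 stellate markers. The summed intensities, GFP-negative first, were 122 to 174 and 108 to 117 for 6 Kupffer cell markers, 237 to 331 and 218 to 224 for 6 endothelial markers, and 310 to 349 and 221 to 263 for 6 stellate cell markers. They were 104 to 116 and 104 to 113 for 4 cholangiocyte markers, 71.1 to 102 and 80.5 to 86.9 for 4 lymphoid markers, and 116 to 226 and 116 to 161 for 3 erythroid markers. Of these lists a single gene passed, the Kupffer marker Clec4f, which fell (log2 difference -0.68 ± 0.13, adjusted p = 0.0325 from limma, or 0.0773 with the replicate number as a block). Below the array medians in both groups lay 5 of 6 Kupffer, 3 of 4 cholangiocyte, 3 of 4 lymphoid, 1 of 6 stellate, 1 of 3 erythroid and 0 of 6 endothelial markers, and none was at 0. The part of these cell types in the results below was not tested.

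Promoter sequences of 8 of the 10 genes were matched by symbol in a RefSeq table of build GRCm38.p6 (11 windows of 300 bases, from 250 before to 50 after a transcript start). Pole and Prim2 are not in that table. Shown are 4 genes that rose in GFP-positive cells (Prim1, Pola1, Fen1 and Pcna) and 3 that did not pass (Pole2, Pold1 and Pola2), each from 180 bases before to 30 bases after the start on the strand of the gene. Capitals mark words that fit the E2F binding motif, searched on both strands: the word TTCCCGC and, with other letters in the middle, the words TTCGCGC or TTGCCGC and likewise TTGGCGC.
Prim1 (chr10:128015035-128015244, plus strand): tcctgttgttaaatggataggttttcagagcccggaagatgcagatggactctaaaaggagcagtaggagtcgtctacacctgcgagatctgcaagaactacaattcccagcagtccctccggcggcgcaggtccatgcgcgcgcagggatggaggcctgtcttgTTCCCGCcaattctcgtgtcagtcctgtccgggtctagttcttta
Pola1 (chrX:93632126-93632335, minus strand): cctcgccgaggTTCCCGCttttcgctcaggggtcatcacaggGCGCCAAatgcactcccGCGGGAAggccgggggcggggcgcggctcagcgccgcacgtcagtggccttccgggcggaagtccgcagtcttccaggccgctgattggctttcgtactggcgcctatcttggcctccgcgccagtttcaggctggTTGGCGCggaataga
Fen1 (chr19:10203892-10204101, minus strand): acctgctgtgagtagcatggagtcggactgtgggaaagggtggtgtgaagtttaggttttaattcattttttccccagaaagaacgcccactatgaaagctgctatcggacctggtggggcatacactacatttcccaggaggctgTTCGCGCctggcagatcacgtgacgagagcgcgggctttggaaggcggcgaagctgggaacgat
Pcna (chr2:132253151-132253360, minus strand): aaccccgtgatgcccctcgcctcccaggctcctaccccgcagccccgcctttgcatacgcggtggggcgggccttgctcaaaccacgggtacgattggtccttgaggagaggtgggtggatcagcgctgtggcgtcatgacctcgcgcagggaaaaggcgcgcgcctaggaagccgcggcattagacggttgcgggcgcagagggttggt
Pole2 (chr12:69228161-69228370, minus strand): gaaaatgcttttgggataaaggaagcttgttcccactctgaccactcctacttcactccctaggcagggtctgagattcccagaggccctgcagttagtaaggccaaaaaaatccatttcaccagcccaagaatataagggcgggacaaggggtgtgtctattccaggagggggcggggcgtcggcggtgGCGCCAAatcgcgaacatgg
Pold1 (chr7:44548786-44548995, minus strand): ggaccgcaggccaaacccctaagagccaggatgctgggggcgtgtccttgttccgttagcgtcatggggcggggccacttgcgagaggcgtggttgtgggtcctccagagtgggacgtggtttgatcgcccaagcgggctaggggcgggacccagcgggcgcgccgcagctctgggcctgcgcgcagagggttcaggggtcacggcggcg
Pola2 (chr19:5964177-5964386, minus strand): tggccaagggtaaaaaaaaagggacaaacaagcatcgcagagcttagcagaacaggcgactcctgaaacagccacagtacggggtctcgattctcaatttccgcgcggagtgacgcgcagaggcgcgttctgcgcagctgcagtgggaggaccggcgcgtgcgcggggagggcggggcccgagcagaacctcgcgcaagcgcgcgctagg
An E2F word was found in the 300-base windows of 6 of the 8 genes, or 7 of 11 windows, while 9.57% of the 32851 windows in the whole table held one. Counted from 1 at the transcript start, with negative positions before it, the match in Prim1 began at -15 and that in Fen1 at -34. A further window of Fen1, not shown, held no E2F word. Pola1 had 4 matches, beginning at -169, -138, -121 and 16. The match of Pole2 began at 11 and that of Pold1 at 40, outside the stretch shown, so a match was present in genes that passed and in genes that did not. Pcna and Pola2 had none of these words, which says only that the letters are not in these windows. For Lig1, matches lay in 2 of its 3 windows. The GC box word GGGCGG was found in 7 of the 11 windows (35.7% of all windows), the CCAAT word in 3 (37.4%) and the CHR word TTTGAA in 1 (17.9%). Each was searched on both strands. GGGCGG can share bases with an E2F word on the reverse strand, and in Prim1 the E2F and CCAAT words overlap.

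Of the 10 genes, 6 rose in GFP-positive cells and none fell: the polymerase alpha gene Pola1, the primase gene Prim1, the polymerase epsilon gene Pole, and Pcna, Fen1 and Lig1. The others, Pola2, Prim2, Pold1 and Pole2, did not pass. All 10 differences lay above 0, with a median log2 difference of 1.04 and a range from 0.09 to 1.88, beside a median of -0.03 over all 19938 genes. Over all genes 1.55% were called higher and 0.115% lower at an adjusted p below 0.05 (limma, Benjamini-Hochberg adjustment over all genes). Every GFP-positive array lay above every GFP-negative array in 7 of the 10 genes, the 6 called ones and Prim2, as in 6.82% of all genes. With the replicate number as a block, the same count of 6 was higher, beside 1.64% of all genes. Since the genes were chosen with earlier results of these data known, these shares are a description. In these bulk samples, more expressing cells and more RNA per cell cannot be told apart.

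**Figure D1:**
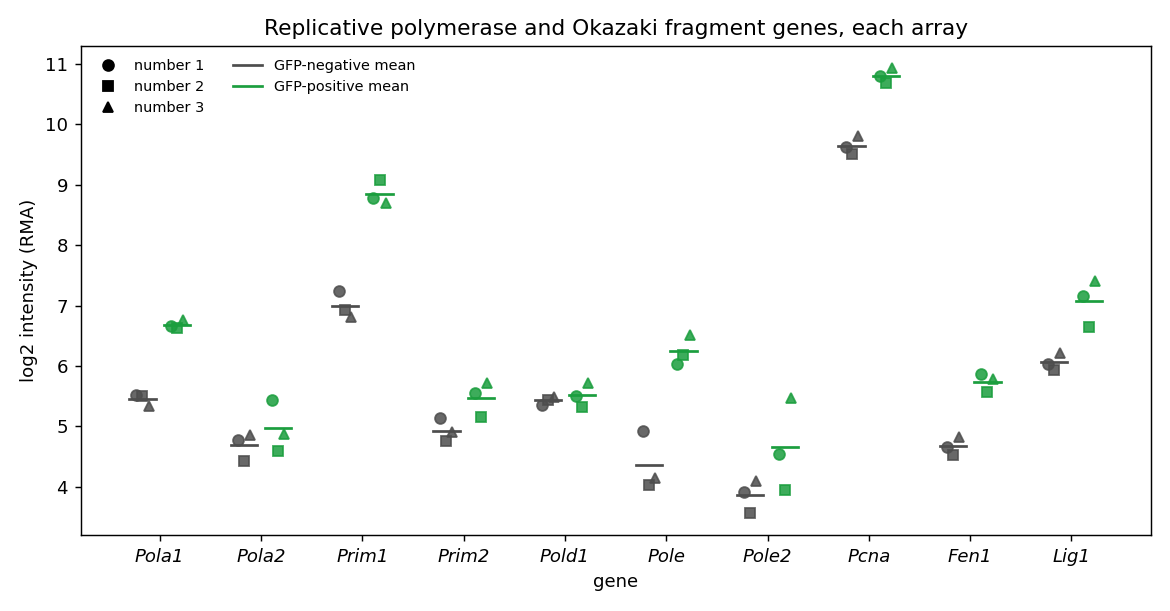
Log2 RMA intensity of the 10 genes (horizontal axis) on each array, with GFP-negative arrays in grey and GFP-positive arrays in green, the replicate number as the symbol and a line at the mean of 3 arrays. The groups are apart for Pola1, Prim1, Pole, Pcna, Fen1 and Lig1, just apart for Prim2, and overlap for Pola2, Pold1 and Pole2. Levels of different genes rest on different probes and are not comparable.

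Within polymerase alpha-primase, the genes of both catalytic subunits rose. Prim1 (probe set 10367076) encodes the subunit that synthesises the RNA primer. Its log2 intensity was 7.23, 6.92 and 6.81 in GFP-negative cells numbers 1, 2 and 3, and 8.77, 9.08 and 8.69 in GFP-positive cells. The groups were 1.46 apart at their nearest arrays, the widest gap among the 10 genes, and the rise was 3.63-fold (log2 difference 1.86 ± 0.17 SE, adjusted p = 0.00021 by limma). Pola1 (probe set 10605674), the catalytic DNA polymerase subunit that extends this primer, stood at 5.52, 5.50 and 5.33 in GFP-negative cells and at 6.66, 6.62 and 6.75 in GFP-positive cells. Its spread was small in both groups (SD 0.10 and 0.07, n = 3), and it was 2.34-fold higher (log2 difference 1.23 ± 0.13, adjusted p = 0.00076 by limma).

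The partner subunits of the same complex did not pass. Prim2 (probe set 10353733), the regulatory primase subunit that binds an iron-sulphur cluster, was 5.13, 4.75 and 4.90 in GFP-negative and 5.55, 5.15 and 5.72 in GFP-positive cells. The groups were separated by only 0.02, and the log2 difference was 0.54 with a 95% confidence interval from 0.14 to 0.95 for the single gene (adjusted p = 0.329 by limma). Pola2 (probe set 10465282), the accessory subunit that tethers the polymerase and primase parts, was 4.77, 4.43 and 4.85 in GFP-negative cells and 5.44, 4.59 and 4.87 in GFP-positive cells. The groups overlapped, and of the GFP-positive arrays number 1 alone lay well above the GFP-negative ones. The interval of the log2 difference ran from -0.21 to 0.78 (estimate 0.28, adjusted p = 0.839 by limma). A rise of up to 1.72-fold is within that interval, and without GFP-positive number 1 the difference was 0.046, without GFP-positive number 2 it was 0.47 and without GFP-negative number 2 it was 0.16.

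Pole (probe set 10524169), the catalytic subunit of the leading-strand polymerase epsilon, had the largest log2 difference of the 10 genes. It was 4.93, 4.02 and 4.14 in GFP-negative and 6.04, 6.18 and 6.52 in GFP-positive cells (log2 difference 1.88 ± 0.24, adjusted p = 0.00241 by limma). The GFP-negative mean of 4.36 lay below the array medians over all probe sets (4.60 to 4.74). With values under an array's median raised to it, the estimated rise was 2.81-fold. Pole2 (probe set 10400649), the second subunit of the same enzyme, lay below the array medians on average in both groups. Its values were 3.91, 3.57 and 4.10 in GFP-negative and 4.55, 3.95 and 5.48 in GFP-positive cells. The groups overlapped, and the GFP-positive arrays had the widest spread among the 10 genes (SD 0.77, n = 3), with number 3 high. The log2 difference of Pole2 was 0.80 with an interval from 0.05 to 1.54 (adjusted p = 0.508 by limma). It was 0.39 without GFP-positive number 3 and 0.29 with values raised to the array medians.

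Pold1 (probe set 10562818), the catalytic subunit of the lagging-strand polymerase delta, had the smallest difference. It was 5.36, 5.44 and 5.49 in GFP-negative and 5.51, 5.32 and 5.72 in GFP-positive cells, with GFP-positive number 2 the lowest of all 6 arrays. The log2 difference was 0.09 with an interval from -0.24 to 0.42 (adjusted p = 0.941 by limma), so that a rise above 1.34-fold lies outside the interval. The interval of Pole ran from 1.34 to 2.43 on the log2 scale and did not reach that of Pold1. These are the genes with the largest and the smallest difference, a pair chosen after the values were seen. Separated intervals are nearly built into that choice, and a difference between the polymerases was not tested. The GFP-negative mean of Pole lay below the array medians, and with values raised to them its log2 difference was 1.49.

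**Figure D2:**
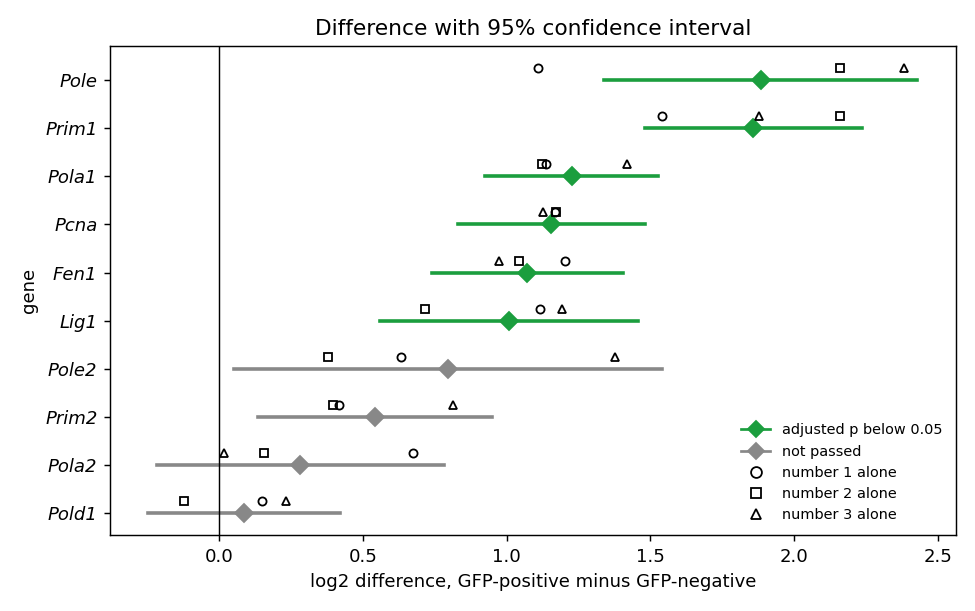
Log2 difference of each gene, GFP-positive minus GFP-negative (diamonds), with the 95% confidence interval of limma (lines) and the difference between arrays of the same number (open symbols). Green genes passed at an adjusted p below 0.05. Pole and Prim1 lead with 1.88 and 1.86, and the interval of Pold1 lies around 0.

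The genes of the clamp and of Okazaki fragment joining rose between 2.01-fold and 2.23-fold. Pcna (probe set 10461391) was 9.63, 9.50 and 9.80 in GFP-negative and 10.80, 10.68 and 10.93 in GFP-positive cells, 2.23-fold higher (log2 difference 1.16 ± 0.15, adjusted p = 0.00208 by limma). The differences between same-numbered arrays were 1.17, 1.17 and 1.13. A further probe set annotated to Pcna (10487930) gave nearly the same values, at most 0.010 apart on any array, and both were counted as 1 measurement. The gene table used for names lists 2 Pcna pseudogenes, and whether the probes also match their transcripts was not tested.

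Fen1 (probe set 10465912), the flap endonuclease gene, was 4.66, 4.53 and 4.82 in GFP-negative and 5.86, 5.57 and 5.79 in GFP-positive cells. The groups were 0.75 apart, and Fen1 was 2.10-fold higher (log2 difference 1.07 ± 0.15, adjusted p = 0.00406 by limma). Its GFP-negative values lay at the level of the array medians. Lig1 (probe set 10550102), the ligase gene, was 6.04, 5.93 and 6.21 in GFP-negative and 7.15, 6.65 and 7.41 in GFP-positive cells. The groups did not overlap, GFP-positive number 2 being the nearest, and Lig1 was 2.01-fold higher (log2 difference 1.01 ± 0.20, adjusted p = 0.0374 by limma). Lig1 was the only one of the 6 genes whose call was lost under any of the alternatives run. The adjusted p of Lig1 was 0.0873 to 0.145 when any array other than GFP-positive number 2 was left out and 0.0068 without that array. When all 35512 probe sets were tested alone, where 0.85% were called higher, it was 0.161, and it ran from 0.00522 to 0.161 over all alternatives.

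Set side by side as a description, with pairs chosen after their values were seen and no test, the catalytic genes of polymerase alpha-primase had intervals above those of their partner subunits. The interval of the log2 difference was 1.48 to 2.24 for Prim1 and 0.14 to 0.95 for Prim2. It was 0.93 to 1.53 for Pola1 and -0.21 to 0.78 for Pola2. The GFP-negative mean of Pola2 (4.68) lay at the level of the array medians (4.60 to 4.74). Fen1, with a similar GFP-negative mean (4.67), was 2.10-fold higher. Whether the low level limited the difference measured for Pola2 was not tested. For polymerase epsilon, the intervals of Pole (1.34 to 2.43) and Pole2 (0.05 to 1.54) overlapped. Pole2 lay below the array medians on average in both groups.

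Arrays of number 2 tended to be low for these genes in both fractions. GFP-positive number 2 was the lowest of its group for 8 of the 10 genes, where it was lowest for 35.2% of all genes, and GFP-negative number 2 was lowest for 7 of the 10, against 36.8% of all genes. The exceptions among GFP-positive arrays were Prim1, for which number 2 was the highest, and Pole. The median log2 difference of the 10 genes was 1.11, 0.88 and 1.16 in numbers 1, 2 and 3. Number 2 alone had high Xist and low Eif2s3y in both fractions, so that this mouse and its sex cannot be told apart. Without both arrays of number 2, an alternative added after the data were seen, 6 genes were again higher and the median was 1.12.

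Among 58 measured genes of a wider replication list, 10 rose and none fell, with a median log2 difference of 0.36. Passed or not, 41 differences lay above 0 and 17 below. Without the MCM helicase and deoxynucleotide genes of that list, 5 of 45 rose (median 0.25). None of the 5 accessory subunit genes of polymerases delta and epsilon passed (median 0.26). The largest difference among them was that of Pole3, a small histone-fold subunit of polymerase epsilon (0.37 ± 0.18, adjusted p = 0.617 by limma).

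Of 9 genes of clamp loaders and unloaders, which open the PCNA ring or remove it, all lay above 0 (median 0.53) and 2 rose. Rfc4, a subunit of the main loader, was 5.33, 5.47 and 5.62 in GFP-negative and 7.03, 6.63 and 6.67 in GFP-positive cells, 2.47-fold higher (adjusted p = 0.00179 by limma). Dscc1, of the alternative CTF18 loader, scattered widely in GFP-negative cells (2.93, 3.83 and 4.39, against 5.91, 5.45 and 5.09), and all its GFP-negative values lay below the array medians. Its log2 difference was 1.76 ± 0.34 (3.40-fold, adjusted p = 0.0331 by limma), and the estimate was 1.77-fold with values raised to those medians. That call was lost without GFP-negative 1 (0.056), GFP-negative 2 (0.0756), GFP-positive 1 (0.122) or GFP-positive 2 (0.103), and with that floor (0.205). It was also lost with all probe sets tested alone (0.178) and without both arrays of number 2 (0.161). Of the 3 RPA genes, whose protein coats single-stranded DNA, none passed and all lay above 0 (median 0.59). Rpa3 was the furthest (0.62 ± 0.18, adjusted p = 0.192 by limma).

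Of 6 nuclease genes that can act on Okazaki primers and flaps, none passed (median 0.54), and 4 lay above 0 and 2 below. Exo1, a flap-cutting and mismatch repair exonuclease gene, came nearest (0.80 ± 0.18, adjusted p = 0.0704 by limma). Its adjusted p was 0.0147 with array weights, 0.119 with the replicate block and 0.0599 to 0.258 with a single array left out. Its GFP-negative mean of 4.17 lay below the array medians, and with values raised to them its difference was 0.31 (adjusted p = 0.402 by limma). Among 4 partners of PCNA and the polymerases, Pclaf rose. Pclaf encodes a small PCNA-binding protein, and it was 5.34, 4.995 and 4.89 in GFP-negative and 7.48, 7.59 and 7.18 in GFP-positive cells, 5.08-fold higher (adjusted p = 4.8e-05 by limma). Wdhd1, which links polymerase alpha to the replisome helicase, missed the threshold (0.79 ± 0.17, adjusted p = 0.0679 by limma) and passed with the replicate block (0.0478).

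Most polymerase genes outside the replisome did not pass. Of 11 measured translesion and repair polymerase genes, 2 rose, and the median difference was 0.03. Polh, the polymerase that copies past ultraviolet lesions, was 4.16-fold higher (4.93 ± 0.42 against 6.99 ± 0.14, SD, n = 3, adjusted p = 0.00049 by limma). Polq, the polymerase of microhomology-mediated end joining, rose from 4.20 ± 0.29 to 5.54 ± 0.25 (adjusted p = 0.00513 by limma). With values raised to the array medians, its estimated rise was 1.84-fold. None of the 4 genes of mitochondrial DNA replication and transcription passed (median -0.14), nor did any of 3 genes of the other ligases and their partner Xrcc1 (median -0.05). The largest differences there were those of the helicase gene Twnk (-0.24 ± 0.22, adjusted p = 0.867 by limma) and of the end-joining ligase gene Lig4 (0.19 ± 0.16, adjusted p = 0.854 by limma).

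Set beside the 10 genes, 2 of 6 MCM helicase genes rose (median 0.74). These were Mcm7 (2.34-fold higher, adjusted p = 0.00718 by limma) and Mcm5 (1.82-fold higher, adjusted p = 0.0445 by limma, or 0.0699 with the replicate block). Mcm5 did not pass without GFP-negative 1, 2 or 3 (0.081, 0.111 and 0.157) or GFP-positive 1 or 3 (0.147 and 0.182). Nor did it pass with median centring (0.0957), an intensity trend (0.0511) or the floor at the array median (0.0886). The same held with all probe sets tested alone (0.161) and without both arrays of number 2 (0.0672). Mcm6 had a larger log2 difference of 1.47 but a wider spread (adjusted p = 0.0502, or 0.00138 with the block). Of 7 measured deoxynucleotide supply genes, Rrm1, Rrm2 and Tyms rose (median 0.94), and Tyms, the thymidylate synthase gene, was 2.68-fold higher (adjusted p = 0.00161 by limma). Differences between these lists and the 10 genes were not tested.

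**Figure D3:**
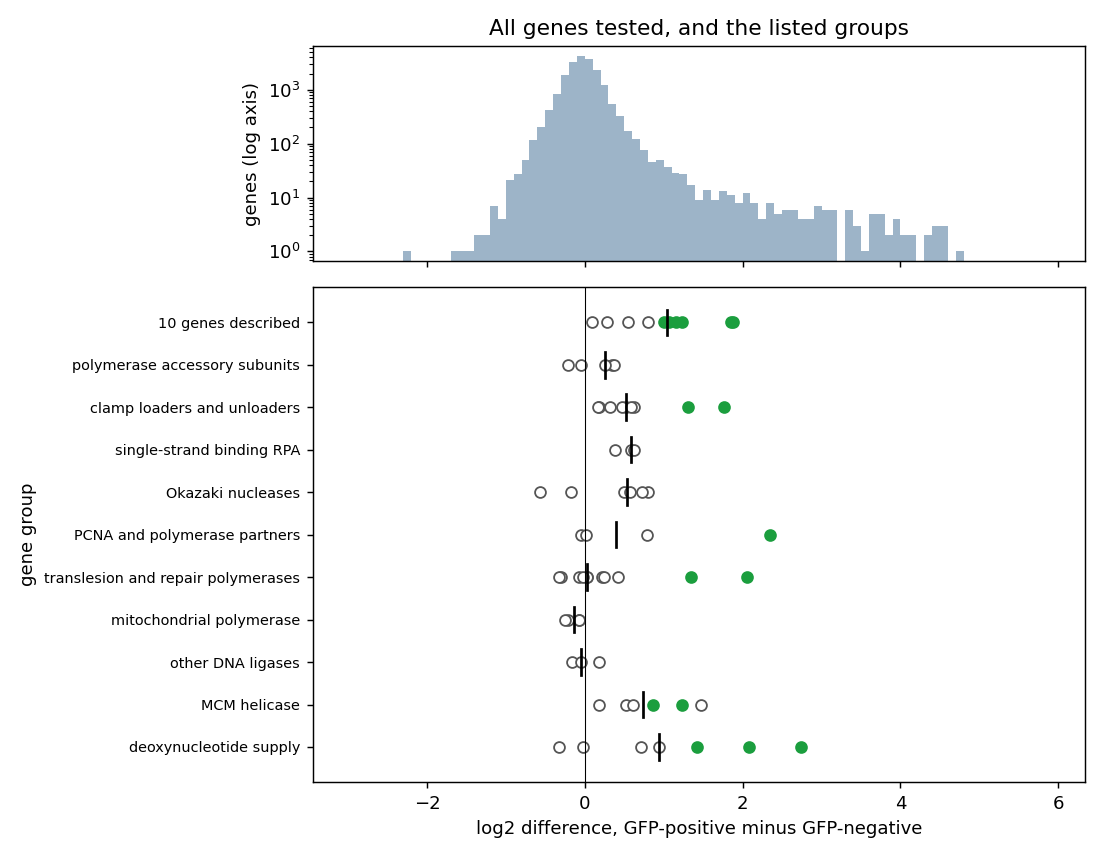
Upper panel, log2 differences of all 19938 genes as a histogram with a logarithmic count axis. Lower panel, each gene of the listed groups as a point (filled green where it rose at an adjusted p below 0.05) with a bar at the median of the group, from 1.04 for the 10 genes described to -0.14 for the mitochondrial genes.

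The profiles nearest to the median profile of the 10 genes over the 6 arrays, each centred on its mean, were those of E2f8, Chaf1a and Topbp1. Their root mean square distances were 0.059, 0.091 and 0.098 on the log2 scale. Their log2 differences were 1.02 (E2f8), 0.92 (Chaf1a) and 1.14 (Topbp1). A difference near that of the 10 genes follows from choosing the nearest profiles, so these values are a description with no test.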

How the data were processed

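Per the submitters' processing notes, the authors used RMA, whose version, settings and genome build the sources do not give. The deposited intensities, 1 for each probe set of an array, are linear (array medians of 24.3 to 26.7), so log2 was taken. Per the labels' protocols, 10 ng of total RNA per sample was amplified and biotin-labelled. The platform annotation gives 1 symbol for 21789 of 35512 probe sets, several for 1621 and none for 12102, and symbols were updated through Entrez identifiers. For each of 19938 genes the brightest probe set by mean was kept.

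The test was limma 3.58.1 under R 4.3.3 (lmFit and eBayes, no trend, group alone, 4 residual and 5.44 prior degrees of freedom) with Benjamini-Hochberg adjustment over all genes at 0.05, checked on simulated data. Fitted differences have SE, group means SD (n = 3), and the number of arrays limits precision. Of 115 listed symbols 107 were matched. The members and lists were chosen with earlier results of these data known. Named were all members, each wider-list gene that passed or, failing that, the largest difference of its group, and the 3 nearest profiles. Also named, after values were seen, were Wdhd1, Mcm6, Clec4f, Xist and Eif2s3y.

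Arrays with the same number were taken as pairs from 1 mouse, because the design text has each of 3 livers sorted into both fractions. Xist was 9.03 in GFP-negative and 9.80 in GFP-positive number 2 and at most 4.04 elsewhere. It therefore sets number 2 apart but does not tell numbers 1 and 3 from each other. Deviations from group means correlated by 0.20, 0.06 and -0.05 in numbers 1, 2 and 3. The replicate block left 2 residual degrees of freedom. Alternatives were this block, quantile normalization, median centring, a filter on low means, the mean of probe sets, all probe sets tested alone, an intensity trend, array weights, a floor at the array median, leaving out each array and, added later, leaving out number 2.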

Additional observations from a re-analysis of the deposited data

How the results depend on the processing

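Over 16 alternatives, Pola1, Prim1, Pole, Pcna and Fen1 passed in each, and Lig1 in 8, so the count of higher members was 5 or 6 and that of lower members 0. With the replicate block the count was 6 and the median log2 difference 1.04, and the block changed the call of no member. The median of the 10 genes ran from 0.94 without GFP-positive replicate 3 to 1.19 without GFP-positive replicate 2. Prim2, Pola2, Pold1 and Pole2 passed in no alternative, Pola2 ran from 0.046 to 0.47 and Pole2 from 0.39 to 1.15 with single arrays left out, and Pole2 was left out by the filter on low means. With single arrays left out, Pold1 ran from -0.014 (without GFP-positive replicate 3) to 0.19 and Twnk from -0.42 to 0.014 (without GFP-negative replicate 2), and Twnk was 0.083 without both arrays of number 2. The count of higher wider-list genes ran from 7 (all probe sets tested alone) to 15 (array weights), beside 10, and was 12 with the block. The cause of these changes was not tested. Values near or below the array medians (Pola2, Pole, Pole2, Fen1, Dscc1, Exo1 and Polq in GFP-negative cells) can limit how large a fold is measured. Whether they did so here was not tested.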
